A study of Mus musculus with 20 samples.

Results

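The 44 genes described here relay signals from innate immune receptors to NF-κB, a transcription factor of inflammation. They were taken by symbol from the 24062 genes of the deposited table and comprise NF-κB subunits, IκB proteins, kinases, TRAF ligases, adaptors, IRAK kinases, ubiquitin editors, NOD sensors and the CARD9-BCL10-MALT1 module. Receptors and cytokines were left out. All 44 symbols were found, and all 44 genes passed the filter on low values at both ages. RNA was measured in magnetically selected microglia, the resident macrophages of the brain, with each sample drawn from the whole brain of a single male mouse on a B6D2F1/J background. There were 6 mThy1-α-synuclein mice (genotype label HEM) and 4 wild-type (WT) mice at 7 months of age, and 5 of each genotype at 10 months, and no mouse received a treatment. The transgene encodes human α-synuclein, lies on the X chromosome and is driven by the murine Thy-1 promoter, which is used for expression in neurons. The sample labels name IBA1 beads for the selection, whereas the study's methods describe CD11b beads.

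In resting cells, IκB proteins hold NF-κB dimers in the cytoplasm. Toll-like and IL-1 receptors recruit the adaptor MyD88 and the IRAK kinases, the ubiquitin ligase TRAF6 then activates TAK1 (encoded by Map3k7) with its TAB partners, and TAK1 activates the IKK complex, which marks IκB for degradation so that NF-κB enters the nucleus. Inhibitors such as IκBα, A20, ABIN1 and IRAK-M limit the signal, several of them are themselves induced by NF-κB, and in microglia the pathway is known for driving cytokine production after contact with microbial or aggregated material.

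Between 33404096 and 77806399 reads per mouse were counted on genes, and the values used here are normalized counts, the reads of a gene divided by a size factor of the mouse. Thy1, whose promoter drives the transgene, ranged at 7 months over 392 to 1298 normalized counts with the transgene against 17.7 to 47.6 without it, and over 1117 to 1741 against 9.41 to 32.4 at 10 months, so the genotype labels matched in all 20 mice. All 12 microglial markers were detected, with summed levels of 2095993 to 2416512 and 2025323 to 2250587 at 7 months and 1997493 to 2223516 and 1831310.2 to 2070256 at 10 months, the transgenic group first. Of these 12, 1 (Gpr34) rose at 7 months and 4 (Siglech, Sall1, Itgam and Cx3cr1) rose at 10 months, and none fell. Markers of other cells were present as well and also differed between genotypes. In these bulk samples, fewer cells of a type and less RNA per cell cannot be told apart. Each age was normalized on its own, so levels at 7 and 10 months are set side by side without a test.

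Some members hold letters of the κB consensus, the sequence that NF-κB binds, in their own promoters. These are shown for members with a match that passed a test and for classical NF-κB targets. RefSeq promoter windows on GRCm38.p6, from 250 bases before to 50 after a start site, were found for 36 of the 44 genes. The κB consensus, searched on both strands, occurred in 11 of these 36 genes (30.6%), against 9.55% of all 27025 genes with a window and 12.1% of the 10499 tested genes with one. The 11 genes were Bcl10, Map3k7, Cyld, Tnfaip3, Rel, Tnip1, Nfkbia, Traf3, Nfkbie, Nfkb2 and Irak1. The 150 bases upstream of the start follow for 6 of them, 5′ to 3′ on the gene's strand, with bases of a κB match in capitals. Tnip1 and Map3k7 passed the test at 10 months, Irak1 passed the test of the difference between ages, and Nfkbia, Nfkb2 and Rel encode an inhibitor and subunits known as NF-κB targets.
Tnip1, chr11:54962941-54963090, minus strand: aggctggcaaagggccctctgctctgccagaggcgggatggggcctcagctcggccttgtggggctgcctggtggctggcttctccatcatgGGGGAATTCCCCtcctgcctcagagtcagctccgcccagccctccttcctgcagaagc
Map3k7, chr4:31963957-31964106, plus strand: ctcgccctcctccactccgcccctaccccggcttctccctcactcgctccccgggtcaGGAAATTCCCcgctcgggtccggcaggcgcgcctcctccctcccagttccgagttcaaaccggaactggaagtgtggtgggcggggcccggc
Irak1, chrX:74023922-74024071, minus strand: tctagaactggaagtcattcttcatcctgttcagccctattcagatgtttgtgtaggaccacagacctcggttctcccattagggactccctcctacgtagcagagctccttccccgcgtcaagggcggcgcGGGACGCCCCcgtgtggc
Nfkbia, chr12:55492648-55492797, minus strand: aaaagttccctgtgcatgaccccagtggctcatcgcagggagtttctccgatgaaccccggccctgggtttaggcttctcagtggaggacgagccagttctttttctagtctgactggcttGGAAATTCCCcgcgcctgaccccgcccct
Nfkb2, chr19:46304587-46304736, plus strand: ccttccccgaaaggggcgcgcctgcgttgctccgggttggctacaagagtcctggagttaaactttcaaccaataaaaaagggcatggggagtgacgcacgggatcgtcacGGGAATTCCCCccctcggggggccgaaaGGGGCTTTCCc
Rel, chr11:23770970-23771119, minus strand: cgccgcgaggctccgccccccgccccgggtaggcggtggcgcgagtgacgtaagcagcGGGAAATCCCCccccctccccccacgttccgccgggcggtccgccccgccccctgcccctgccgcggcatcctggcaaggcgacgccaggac
The match in Tnip1 holds 3 overlapping positions between bases -58 and -47 from the start, that in Map3k7 lies at -92 to -83, and that in Nfkbia at -29 to -20. Nfkb2 has 2 separate matches in this stretch and Irak1 a single one at -18 to -9. The members with a match had a median log2 fold change of 0.083 at 7 months and 0.0037 at 10 months, and the 25 without one 0.078 and -0.056. At 10 months 2 of the 11 with a match were called and 3 of the 25 without one. Those 3 were Nod1, Myd88 and Irak3. A match describes the letters of the window and was not measured as a binding site here.

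The 44 genes differed widely in level and little between mice. Per kilobase of exon, group means ran from 6.00 to 3573 normalized counts in mThy1-α-synuclein mice at 7 months, with a median of 414. Tab2, which links TAK1 to ubiquitin chains, was highest in all 4 groups at 3138 to 3627 per kilobase, followed by Nfkbia at 2251 to 2805. Ikbke, an IKK-related kinase gene, and Traf1, which encodes a signaling adaptor of TNF receptors, were lowest, at 7.71 to 13.2 and 6.00 to 9.92 per kilobase. Between mice of a group the median coefficient of variation over the 44 genes was 8.36% to 9.74%, where all genes tested had medians of 12.2% to 13.4%. These sets were not matched for level. The median group mean of the members was 1844 to 2160 normalized counts, and the filter admitted genes with values from 10, where counting error is larger. The most variable member was Traf1 or Ikbke in each group.

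**Figure D1:**
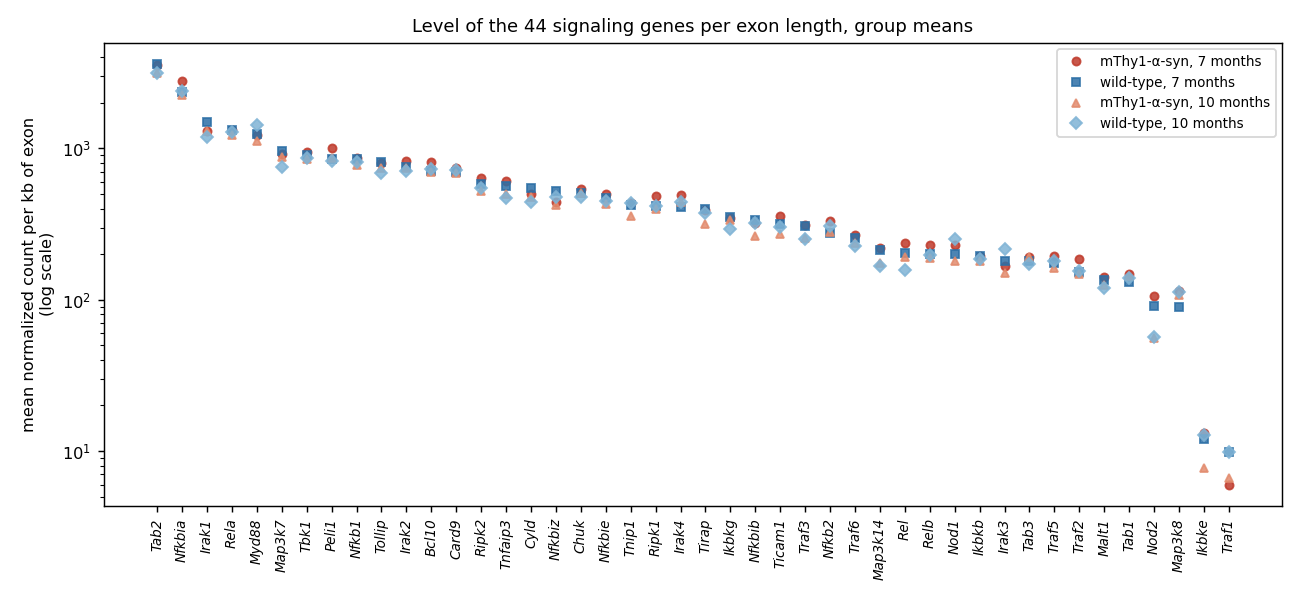
Mean normalized count per kilobase of exon (log scale) of the 44 genes, ordered by level, with a symbol for each of the 4 groups; the ages were normalized separately. Tab2 is highest and Ikbke and Traf1 are lowest in all 4 groups.

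The first question was whether the genes differed between genotypes at 7 months. None of the 44 passed limma's test (Benjamini-Hochberg adjusted p under 0.05 over all 13887 genes tested), where 4.93% of all genes did. The calls of all genes were 2.23% higher and 2.7% lower. edgeR also called 0 members, beside 5.0% of all genes, while DESeq2 called 2, Irak4 and Peli1, against 8.51% of all genes. At an unadjusted p under 0.05 there were 10 members, 8 higher and 2 lower, beside 10.7% and 10.6% of all genes (21.3% together). The log2 fold change, given throughout as mThy1-α-synuclein over wild-type, was above 0 for 30 of 44 members and had a median of 0.080, against 50.2% above 0 and a median of 0.00093 over all genes.

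At 10 months, 5 of the 44 genes passed limma's test, beside 7.67% of 13627 genes tested. Nod1, Myd88, Irak3 and Tnip1 fell and Map3k7 rose, where rose and fell mean higher and lower than in wild-type mice of the same age. For a single direction the share over all genes was 3.79% lower and 3.88% higher. edgeR called the same 5 members, beside 7.93% of all genes, and DESeq2 called those and Nfkbib, beside 12.4%. At an unadjusted p under 0.05 there were 9 members, 2 higher and 7 lower, beside 11.5% and 12.0% of all genes (23.5% together). The median log2 fold change of the 44 genes was -0.050, with 18 of 44 above 0, beside -0.0026 and 49.5% over all genes. The genotypes did not overlap for 4 members (Nod1, Tnip1, Nfkbib and Map3k7), against 7.27% of all genes, and for 2 members at 7 months (Peli1 and Irak1), against 7.53%.

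The 5 calls at 10 months differed in how they held when mice were left out. Nod1 passed without each of the 10 mice in turn, with adjusted p from 0.0128 to 0.032. Myd88, Tnip1 and Map3k7 passed only without mThy1-α-synuclein replicate 4 or without wild-type replicate 4, and Irak3 only without wild-type replicate 4. Without any of the other mice their adjusted p lay above 0.05 and reached 0.101 for Myd88, 0.116 for Tnip1, 0.0983 for Map3k7 and 0.114 for Irak3. The directions were kept throughout, with log2 fold changes from -0.41 to -0.26 for Myd88, -0.63 to -0.40 for Irak3, -0.30 to -0.23 for Tnip1 and 0.19 to 0.23 for Map3k7. With no filter on low values, where more genes share the adjustment, Nod1 alone passed.

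The difference of the genotype effect between the ages, 10 months minus 7 months in a fit of all 20 mice, passed the test for 1 member, Irak1, beside 6.36% of 14457 genes tested, 3.74% above and 2.62% below 0. edgeR called 2 members, Irak1 and Map3k7, beside 6.48% of all genes, and DESeq2 called 4, which were these, Nfkb2 and Nod1, beside 9.38%. This difference was above 0 for 11 of the 44 genes, where 50.1% of all genes were, with a median of -0.14 against 0.00080 over all genes. At an unadjusted p under 0.05 there were 14 members, 3 above and 11 below 0, beside 11.5% and 10.4% of all genes (21.9% together). According to the study's methods, both genotypes of an age were processed together. Age and processing therefore cannot be told apart in this difference.

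**Figure D2:**
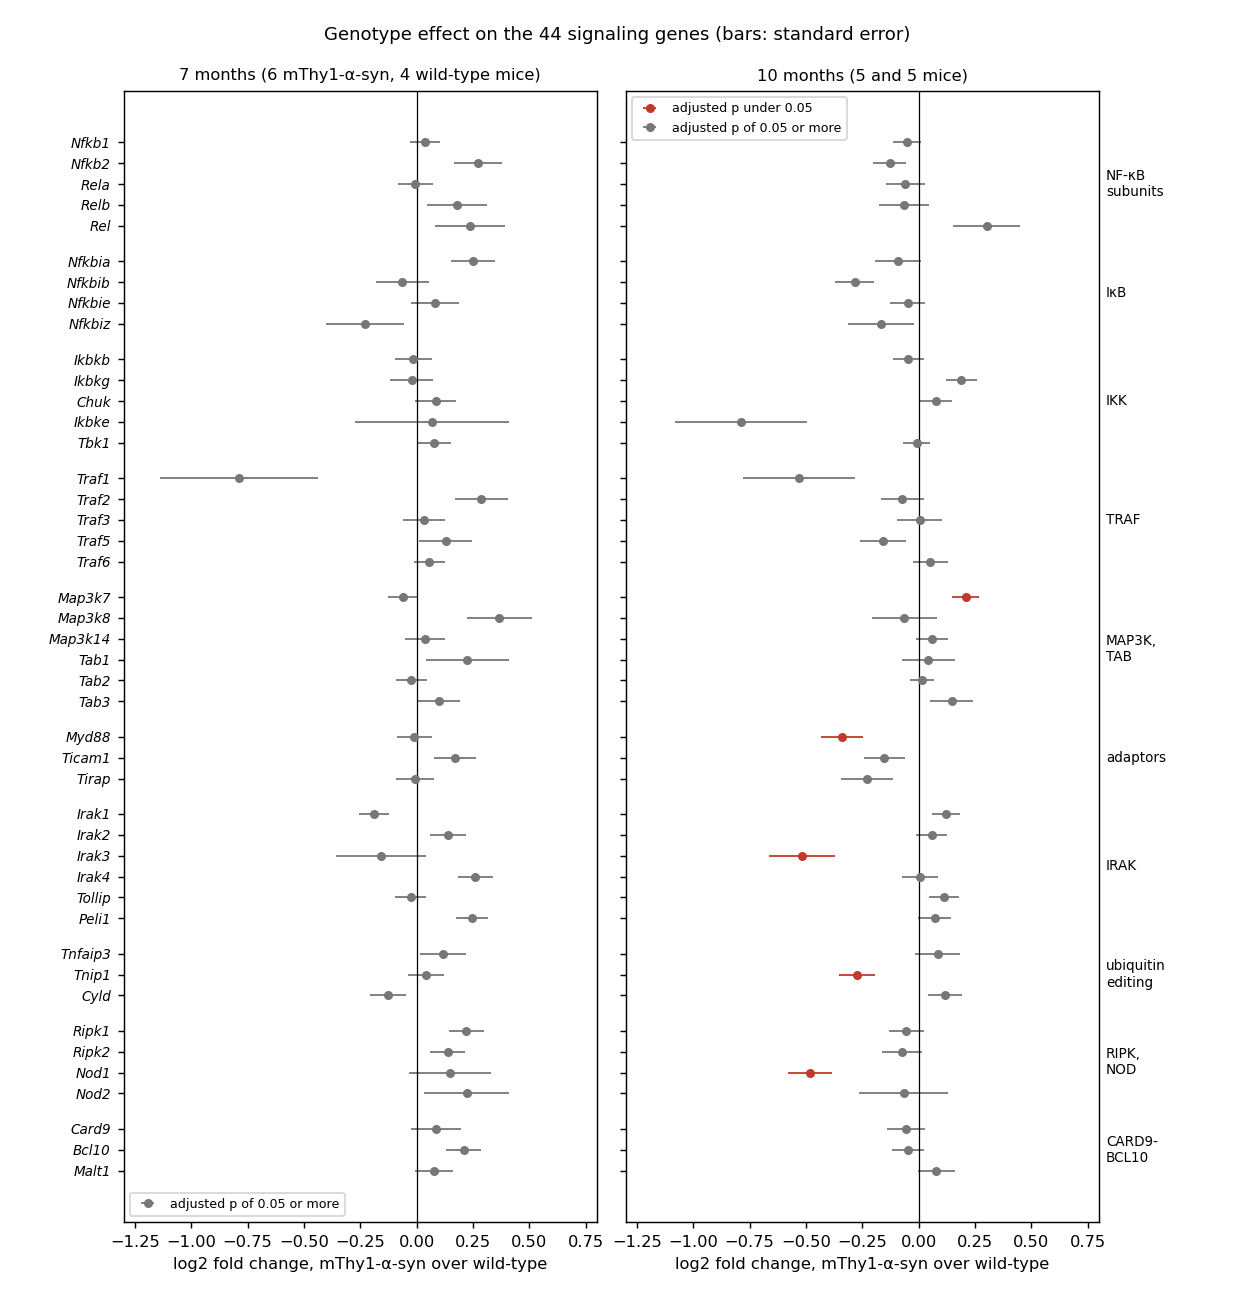
Log2 fold change of mThy1-α-synuclein over wild-type for each of the 44 genes at 7 months (left) and 10 months (right), grouped by role, with bars of 1 standard error and red marking an adjusted p under 0.05 in limma. No gene is red at 7 months, and Map3k7, Myd88, Irak3, Tnip1 and Nod1 are red at 10 months.

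The intracellular sensors and their kinases start the account by role. Nod1 (chr6:54923949-54972612, minus strand) encodes a cytosolic sensor of bacterial peptidoglycan that signals through RIPK2 to NF-κB. At 10 months Nod1 gave 807, 906, 897, 917 and 1059.6 normalized counts in the 5 mThy1-α-synuclein mice and 1561, 1268, 1191, 1285 and 1119 in the 5 wild-type mice. Every mThy1-α-synuclein mouse lay below every wild-type mouse, with the highest of the former close under the lowest of the latter. Nod1 fell by 28.4% (log2 fold change -0.48 ± 0.099, SE, adjusted p = 0.0116, limma). At 7 months Nod1 gave 716, 1207 and 1509 normalized counts as the lowest, median and highest of the 6 mThy1-α-synuclein mice, and 971, 1050.2, 1110.1 and 939 in the 4 wild-type mice. The mThy1-α-synuclein mice spread to both sides of the wild-type mice at that age (log2 fold change 0.15 ± 0.18, adjusted p = 0.681). The difference between ages was -0.63 ± 0.21 (adjusted p = 0.076). Without mThy1-α-synuclein replicate 5 at 7 months, the mouse with the lowest value, this difference was -0.76 (adjusted p = 0.0105, limma). In the other 19 fits that left out 1 mouse it did not pass, with adjusted p up to 0.144.

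Ripk1, a kinase of TNF receptor signaling and of cell death, stood higher at 7 months without passing the test. At 7 months Ripk1 gave 3626, 4063 and 4435 normalized counts as the lowest, median and highest of the 6 mThy1-α-synuclein mice, and 3182, 3659, 3328 and 3719 in the 4 wild-type mice. The groups overlapped only at the edge, where the lowest mThy1-α-synuclein mouse and the 2 highest wild-type mice met (log2 fold change 0.22 ± 0.079, adjusted p = 0.119). At 10 months Ripk1 gave 3489, 3128, 3308, 3371 and 3395 normalized counts in the 5 mThy1-α-synuclein mice and 4132, 3436, 3431, 3208 and 3190.1 in the 5 wild-type mice. A single wild-type mouse stood above all others at that age, and the log2 fold change was -0.054 ± 0.075 (adjusted p = 0.716). Ripk2, the partner kinase of both NOD sensors, and Nod2, a sensor of muramyl dipeptide, had log2 fold changes of 0.14 ± 0.077 and 0.22 ± 0.19 at 7 months and -0.075 ± 0.091 and -0.066 ± 0.20 at 10 months, with adjusted p of at least 0.318.

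Among the adaptors, Myd88 (chr9:119335934-119341411, minus strand), which connects most Toll-like receptors and the IL-1 receptor to the IRAK kinases, fell at 10 months. At 10 months Myd88 gave 2777, 2886, 2885, 3098 and 2846 normalized counts in the 5 mThy1-α-synuclein mice and 4592, 3955, 3526, 3038 and 3397 in the 5 wild-type mice. The mThy1-α-synuclein mice lay close together, the wild-type mice were spread, and 1 wild-type mouse reached into the mThy1-α-synuclein range. Myd88 fell by 21.0% (log2 fold change -0.34 ± 0.094, adjusted p = 0.042, limma). At 7 months Myd88 gave 2915, 3262 and 3289 normalized counts as the lowest, median and highest of the 6 mThy1-α-synuclein mice, and 3381, 2887, 3502 and 2970.2 in the 4 wild-type mice. The mThy1-α-synuclein mice lay within the spread of the others at that age (log2 fold change -0.0099 ± 0.077, adjusted p = 0.961). The 290 exonic bases shared with Acaa1a, a peroxisomal gene of the opposite strand, can yield reads of either gene. Whether the counting used strand, and whether it kept or dropped such reads, is not given in the sources used here.

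Ticam1 encodes TRIF, the adaptor of TLR3 and of the endosomal arm of TLR4, and leaned in opposite directions at the 2 ages. At 7 months Ticam1 gave 973, 1058 and 1179.7 normalized counts as the lowest, median and highest of the 6 mThy1-α-synuclein mice, and 919, 834, 1022 and 1028 in the 4 wild-type mice. At 10 months Ticam1 gave 745, 746, 810.1, 886 and 863 normalized counts in the 5 mThy1-α-synuclein mice and 952, 946, 789, 837 and 983 in the 5 wild-type mice. The genotypes overlapped at both ages. The log2 fold change was 0.17 ± 0.093 (adjusted p = 0.31) at 7 months and -0.15 ± 0.091 (adjusted p = 0.335) at 10 months, and their difference was -0.32 ± 0.12 (adjusted p = 0.125). Tirap, which brings MyD88 to TLR2 and TLR4, had log2 fold changes of -0.0090 ± 0.085 and -0.23 ± 0.12 (adjusted p = 0.969 and 0.245).

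The IRAK group held the member with a difference between ages and a member called at 10 months. Irak1 (chrX:74013914-74023918, minus strand) encodes a kinase that passes the signal from MyD88 to TRAF6. At 7 months Irak1 gave 5665, 6196 and 6697 normalized counts as the lowest, median and highest of the 6 mThy1-α-synuclein mice, and 6737, 6978, 7480.2 and 6909 in the 4 wild-type mice. At 10 months Irak1 gave 5774, 6259.5, 5817, 6157 and 6577 normalized counts in the 5 mThy1-α-synuclein mice and 5858, 5285, 5647, 5559 and 5759 in the 5 wild-type mice. At 7 months every mThy1-α-synuclein mouse was below every wild-type mouse, by a narrow margin, and at 10 months the mThy1-α-synuclein mice were mostly above the wild-type mice with some overlap. The log2 fold change was -0.19 ± 0.067 (adjusted p = 0.119) at 7 months and 0.12 ± 0.060 (adjusted p = 0.245) at 10 months, so neither age passed on its own. The difference between ages was 0.31 ± 0.085 (adjusted p = 0.0284, limma). It lost the call without wild-type replicate 3 at 7 months (0.28, adjusted p = 0.0634), without mThy1-α-synuclein replicate 5 at 10 months (0.28, adjusted p = 0.0536) and without wild-type replicate 2 at 10 months (0.29, adjusted p = 0.0547). Irak1 lies on the X chromosome, as the transgene does, and 2 of 73 tested genes with a start within 5 Mb of it passed the same test (2.74%, against 6.36% overall).

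Irak3 (chr10:120141648-120202130, minus strand) encodes IRAK-M, an inhibitory member of the family found in myeloid cells. At 10 months Irak3 gave 580.1, 551, 625, 396 and 616 normalized counts in the 5 mThy1-α-synuclein mice and 772, 961, 875, 579 and 779.9 in the 5 wild-type mice. The wild-type mice were higher apart from 1 that lay within the mThy1-α-synuclein range. Irak3 fell by 30.1% (log2 fold change -0.52 ± 0.15, adjusted p = 0.0464, limma). The 6 mThy1-α-synuclein mice at 7 months gave 463, 403, 519, 816, 844 and 649.5 normalized counts in the order of their replicate numbers, and the 4 wild-type mice 793, 669, 621 and 579. The first 3 of these mThy1-α-synuclein mice were below all wild-type mice, and 2 of the others were above them (log2 fold change -0.16 ± 0.20, adjusted p = 0.691).

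Irak4, the kinase that starts the IRAK cascade, and Peli1, a ubiquitin ligase that modifies IRAK proteins, had the smallest adjusted p of the 44 genes at 7 months. At 7 months Irak4 gave 2207, 2466 and 2682 normalized counts as the lowest, median and highest of the 6 mThy1-α-synuclein mice, and 1985, 2171, 2213 and 1895 in the 4 wild-type mice. The groups overlapped only where 1 mThy1-α-synuclein mouse fell just under the highest wild-type mouse (log2 fold change 0.26 ± 0.079, adjusted p = 0.0712, limma). At 7 months Peli1 gave 6196, 6560.2 and 7161 normalized counts as the lowest, median and highest of the 6 mThy1-α-synuclein mice, and 5838, 5923, 5103 and 5488 in the 4 wild-type mice. Here every mThy1-α-synuclein mouse was above every wild-type mouse (log2 fold change 0.24 ± 0.071, adjusted p = 0.0622, limma). DESeq2 gave adjusted p of 0.0387 for Irak4 and 0.0238 for Peli1. At 10 months the log2 fold change was 0.0052 ± 0.078 for Irak4 and 0.070 ± 0.074 for Peli1, with adjusted p of 0.978 and 0.615. Irak2, a kinase of the later phase of the response, and Tollip, which restrains IRAK1, had log2 fold changes between -0.027 and 0.14 over both ages and did not pass.

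**Figure D3:**
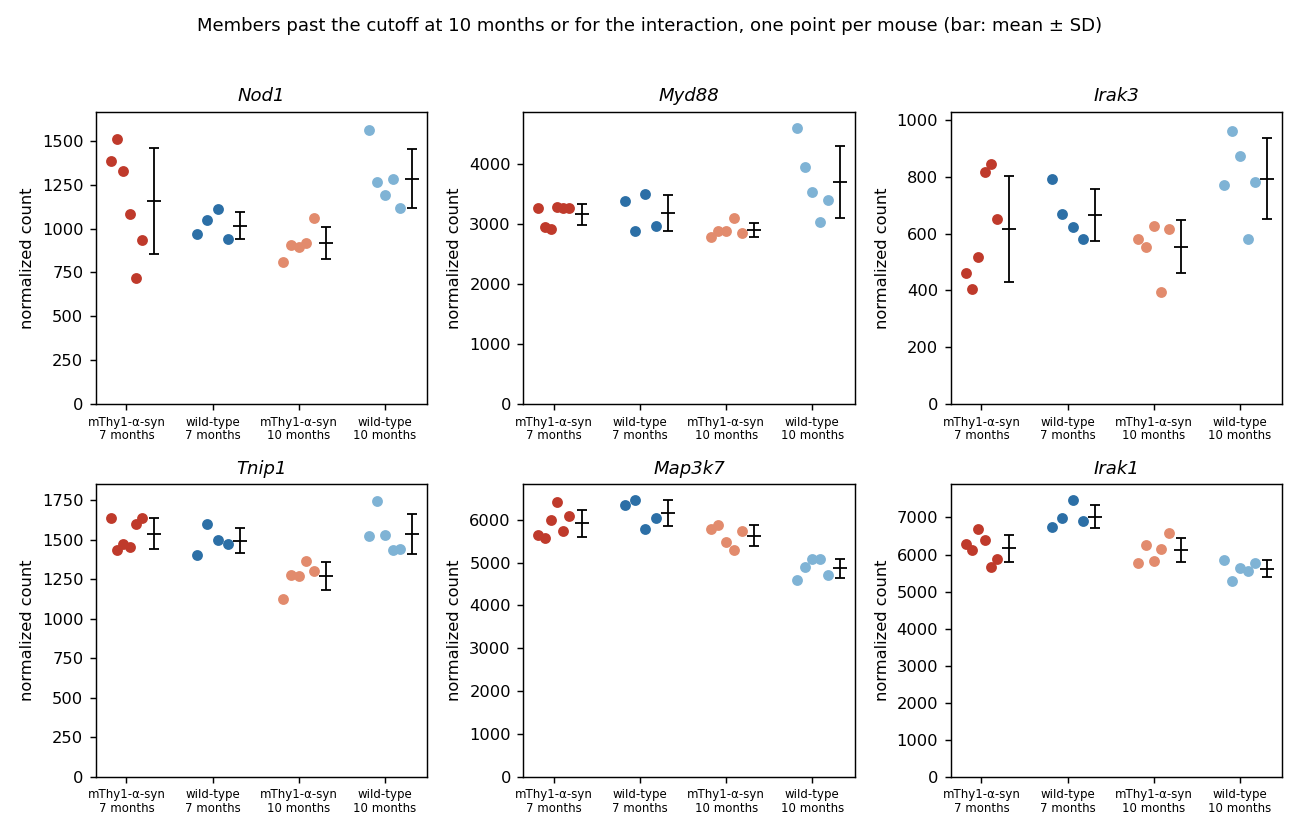
Normalized count in each mouse (points) for the 6 members that passed the test at 10 months or for the difference between ages, with the mean and SD of each group beside them. Nod1, Tnip1 and Map3k7 do not overlap between genotypes at 10 months, Myd88 and Irak3 do, and Irak1 is below the wild-type mice at 7 months and mostly above them at 10 months.

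The TRAF ligases, which attach ubiquitin chains or bridge receptors to kinases, had no member past the test. Traf2 relays TNF receptor signals. At 7 months Traf2 gave 781, 949 and 1129 normalized counts as the lowest, median and highest of the 6 mThy1-α-synuclein mice, and 644, 826, 906 and 735 in the 4 wild-type mice. Most mThy1-α-synuclein mice were above the wild-type mice, with overlap (log2 fold change 0.29 ± 0.12, adjusted p = 0.168). At 7 months Traf1 gave 34.7, 40.3 and 111 normalized counts as the lowest, median and highest of the 6 mThy1-α-synuclein mice, and 115, 86.3, 53.1 and 94.7 in the 4 wild-type mice. All but 2 of the mThy1-α-synuclein mice were below the lowest wild-type mouse, and 1 stood far above the rest of its group. At 10 months Traf1 gave 66.7, 54.3, 53.5, 56.5 and 59.2 normalized counts in the 5 mThy1-α-synuclein mice and 80.5, 52.1, 97.1, 80.6 and 127 in the 5 wild-type mice. The wild-type mice were higher apart from 1 that was the lowest of all 10. The log2 fold change of Traf1 was -0.79 ± 0.35 (adjusted p = 0.209) at 7 months and -0.53 ± 0.25 (adjusted p = 0.208) at 10 months. Traf3, a brake on the noncanonical pathway, Traf5 and Traf6, the ligase of the MyD88 pathway, had log2 fold changes from -0.16 to 0.13 over both ages.

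Among the kinases above IKK, Map3k7 (chr4:31964097-32023467, plus strand), which encodes TAK1, was the only member called higher at 10 months. At 10 months Map3k7 gave 5777, 5871, 5472, 5287 and 5749 normalized counts in the 5 mThy1-α-synuclein mice and 4583, 4898, 5086, 5074 and 4717 in the 5 wild-type mice. Every mThy1-α-synuclein mouse was above every wild-type mouse. Map3k7 rose by 15.6% (log2 fold change 0.21 ± 0.060, adjusted p = 0.0464, limma). At 7 months Map3k7 gave 5579, 5871 and 6426 normalized counts as the lowest, median and highest of the 6 mThy1-α-synuclein mice, and 6354, 6465, 5784 and 6048 in the 4 wild-type mice. The genotypes overlapped at 7 months (log2 fold change -0.060 ± 0.067, adjusted p = 0.646), and the difference between ages was 0.27 ± 0.083 (adjusted p = 0.0534).

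Map3k8 encodes TPL2, which couples the pathway to ERK. At 7 months Map3k8 gave 437, 522 and 622 normalized counts as the lowest, median and highest of the 6 mThy1-α-synuclein mice, and 435, 481, 302 and 389 in the 4 wild-type mice. The mThy1-α-synuclein mice were mostly higher, with overlap (log2 fold change 0.37 ± 0.14, adjusted p = 0.156). At 10 months the log2 fold change was -0.064 ± 0.14 (adjusted p = 0.832). Map3k14, the kinase NIK of the noncanonical pathway, and the TAK1 partners Tab1, Tab2 and Tab3 had log2 fold changes from -0.024 to 0.22 and adjusted p of at least 0.381 at both ages.

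None of the 5 IKK and IKK-related genes passed at either age. Ikbkg, on the X chromosome, encodes NEMO, the scaffold subunit of IKK. At 10 months Ikbkg gave 2713, 2871, 2697, 2583 and 2731 normalized counts in the 5 mThy1-α-synuclein mice and 2448, 2285, 2389, 2681 and 2145 in the 5 wild-type mice. Most mThy1-α-synuclein mice were above the wild-type mice, with 1 wild-type mouse inside their range (log2 fold change 0.19 ± 0.070, adjusted p = 0.116). At 10 months Ikbke gave 125, 47.1, 61.0, 44.8 and 69.2 normalized counts in the 5 mThy1-α-synuclein mice and 77.3, 136, 148, 88.7 and 128 in the 5 wild-type mice. The mThy1-α-synuclein mice were low except 1, which lay inside the other range (log2 fold change -0.79 ± 0.29, adjusted p = 0.118). Without that mouse, mThy1-α-synuclein replicate 1, Ikbke passed at -1.02 (adjusted p = 0.045, limma). In the other 9 fits that left out 1 mouse it did not pass, with adjusted p up to 0.226. At 7 months the log2 fold changes were -0.021 ± 0.095 for Ikbkg and 0.066 ± 0.34 for Ikbke. The catalytic subunits Chuk and Ikbkb and the IKK-related kinase Tbk1 had log2 fold changes from -0.047 to 0.084 over both ages.

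The IκB proteins were the next layer. Nfkbia encodes IκBα, the inhibitor that NF-κB induces to end its own activity. At 7 months Nfkbia gave 3749, 4441 and 5266 normalized counts as the lowest, median and highest of the 6 mThy1-α-synuclein mice, and 3796, 4226, 3595 and 3502 in the 4 wild-type mice. The groups overlapped, the mThy1-α-synuclein mice reaching higher (log2 fold change 0.25 ± 0.097, adjusted p = 0.152). At 10 months the log2 fold change of Nfkbia was -0.092 ± 0.10 (adjusted p = 0.634). Nfkbib encodes IκBβ. At 10 months Nfkbib gave 513, 590.4, 574, 632 and 559 normalized counts in the 5 mThy1-α-synuclein mice and 704, 702, 691, 653 and 736 in the 5 wild-type mice. Every mThy1-α-synuclein mouse was below every wild-type mouse (log2 fold change -0.28 ± 0.087, adjusted p = 0.0598, limma), and DESeq2 gave an adjusted p of 0.0239. Nfkbie, for IκBε, and Nfkbiz, for the nuclear cofactor IκBζ, had log2 fold changes from -0.23 to 0.083 over both ages.

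No gene of the 5 NF-κB subunits passed at either age. Nfkb2 encodes p100, the precursor of the noncanonical subunit p52. At 7 months Nfkb2 gave 1253, 1529 and 1710.3 normalized counts as the lowest, median and highest of the 6 mThy1-α-synuclein mice, and 1129, 1126, 1407 and 1398 in the 4 wild-type mice. At 10 months Nfkb2 gave 1194, 1303, 1363, 1303 and 1231 normalized counts in the 5 mThy1-α-synuclein mice and 1333, 1528, 1413, 1318 and 1403 in the 5 wild-type mice. The mThy1-α-synuclein mice were mostly higher at 7 months and mostly lower at 10 months, with overlap both times. The log2 fold change was 0.27 ± 0.10 (adjusted p = 0.148) and -0.13 ± 0.072 (adjusted p = 0.301), and the difference between ages -0.40 ± 0.13 (adjusted p = 0.0566). Rel, for c-Rel, had the log2 fold change farthest from 0 among the subunits at 10 months, 0.30 ± 0.15 (adjusted p = 0.241). Rela and Nfkb1, the canonical p65 and p105/p50 genes, had log2 fold changes of -0.0060 ± 0.076 and 0.037 ± 0.067 at 7 months and -0.060 ± 0.086 and -0.051 ± 0.062 at 10 months, and Relb, the partner of p52, 0.18 ± 0.13 and -0.066 ± 0.11.

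Of the ubiquitin-editing inhibitors, Tnip1 (chr11:54910785-54962917, minus strand), which encodes the A20-binding protein ABIN1, fell at 10 months. At 10 months Tnip1 gave 1126, 1278, 1273, 1368 and 1302 normalized counts in the 5 mThy1-α-synuclein mice and 1527, 1749, 1532, 1433 and 1444 in the 5 wild-type mice. Every mThy1-α-synuclein mouse was below every wild-type mouse. Tnip1 fell by 17.3% (log2 fold change -0.27 ± 0.079, adjusted p = 0.0483, limma). At 7 months Tnip1 gave 1434, 1537 and 1641 normalized counts as the lowest, median and highest of the 6 mThy1-α-synuclein mice, and 1407, 1602, 1502 and 1472 in the 4 wild-type mice. The genotypes overlapped at 7 months (log2 fold change 0.041 ± 0.078, adjusted p = 0.8), and the difference between ages was -0.32 ± 0.11 (adjusted p = 0.0721).

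Cyld encodes a deubiquitinase that removes chains from TRAF and NEMO proteins. At 7 months Cyld gave 5457, 6472 and 7036 normalized counts as the lowest, median and highest of the 6 mThy1-α-synuclein mice, and 7194, 7176, 6521 and 6609.7 in the 4 wild-type mice. At 10 months Cyld gave 6629, 6749, 6087, 5247 and 5455 normalized counts in the 5 mThy1-α-synuclein mice and 5518, 5865, 5549.8, 5508 and 5255 in the 5 wild-type mice. The genotypes overlapped at both ages, with log2 fold changes of -0.13 ± 0.081 and 0.12 ± 0.077 and a difference of 0.24 ± 0.11 (adjusted p = 0.201). Tnfaip3, for A20, had log2 fold changes of 0.12 ± 0.10 and 0.084 ± 0.099. In the CARD9-BCL10-MALT1 module, which serves C-type lectin receptors, Bcl10 had the smallest p. At 7 months Bcl10 gave 3461, 3770.0 and 3920.5 normalized counts as the lowest, median and highest of the 6 mThy1-α-synuclein mice, and 3557, 2786, 3311 and 3269 in the 4 wild-type mice. The mThy1-α-synuclein mice were mostly higher, with overlap (log2 fold change 0.21 ± 0.078, adjusted p = 0.135). At 10 months Bcl10 was at -0.046 ± 0.071, and Card9 and Malt1 had log2 fold changes from -0.056 to 0.086 over both ages.

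Markers of blood cells moved with the genotype at 10 months. All 8 neutrophil markers had a log2 fold change below 0 at that age, with a median of -1.04, and 2 of them (Retnlg and Cxcr2) passed the test. None of the 8 was at 0 in every mouse of a group. At 10 months their normalized counts summed to 73397 to 198812 across the mThy1-α-synuclein group and to 158372 to 394259 across the wild-type group, and at 7 months, where 0 of 8 passed, to 45153 to 442560.3 and 77153 to 287131. At 7 months the mThy1-α-synuclein replicates 1 to 3 had sums of 75439.9, 75168 and 45153, and replicates 4 to 6 had 270992, 442560.3 and 247842. The same mice split in Irak3, which was low in the first 3 and high in the others, and in Nod1, which was at 1383, 1509 and 1332 in the first 3 and at 1081, 716 and 936 in the others. At 7 months, with genotype means removed, Irak3 had Pearson r = 0.84 with the log2 sums (permutation p = 0.00286, adjusted 0.0143 over 10 relations). Nod1 had r = -0.72 (permutation p = 0.0165, adjusted 0.055). Without the 2 mice farthest from the median these were 0.94 (adjusted permutation p = 0.0039) and -0.93 (adjusted permutation p = 0.00395). Myd88, Tnip1 and Map3k7 had r from 0.31 to 0.58 (permutation p of at least 0.0871). The 7-month mice fell into separate clusters of the markers, so a graded relation and a difference between clusters cannot be told apart.

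At 10 months, over the 10 mice and with the genotype means removed, Irak3 followed the summed neutrophil markers (Pearson r = 0.84, permutation p = 0.0014, adjusted 0.014 over the 10 relations computed, Spearman rho = 0.79, permutation p = 0.00928). Without the 2 mice farthest from the median, r was 0.60 (permutation p = 0.111, adjusted 0.371). With 8 mice over a narrower marker range, this cannot show whether the relation rested on those 2. The other 4 called members had r between -0.066 and 0.16 (permutation p of at least 0.654). A fit with the log2 sum of these markers as a covariate, chosen after the data were seen, called 0 of the 44 genes at 10 months, where it called 0.294% of all genes. The sums were mostly lower in mThy1-α-synuclein mice at this age, so the fit can separate marker level from genotype only in part. In that fit the log2 fold change of Irak3 was -0.067 (adjusted p = 0.901), whereas Nod1 was at -0.50 (0.173), Myd88 at -0.33 (0.354), Tnip1 at -0.28 (0.354) and Map3k7 at 0.23 (0.312), with adjusted p in parentheses. At 7 months it called 1 member, Irak4, beside 5.59% of all genes. The difference between ages passed in it for 4 members, Nfkb2, Map3k7, Irak1 and Nod1, beside 8.1% of all genes.

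**Figure D4:**
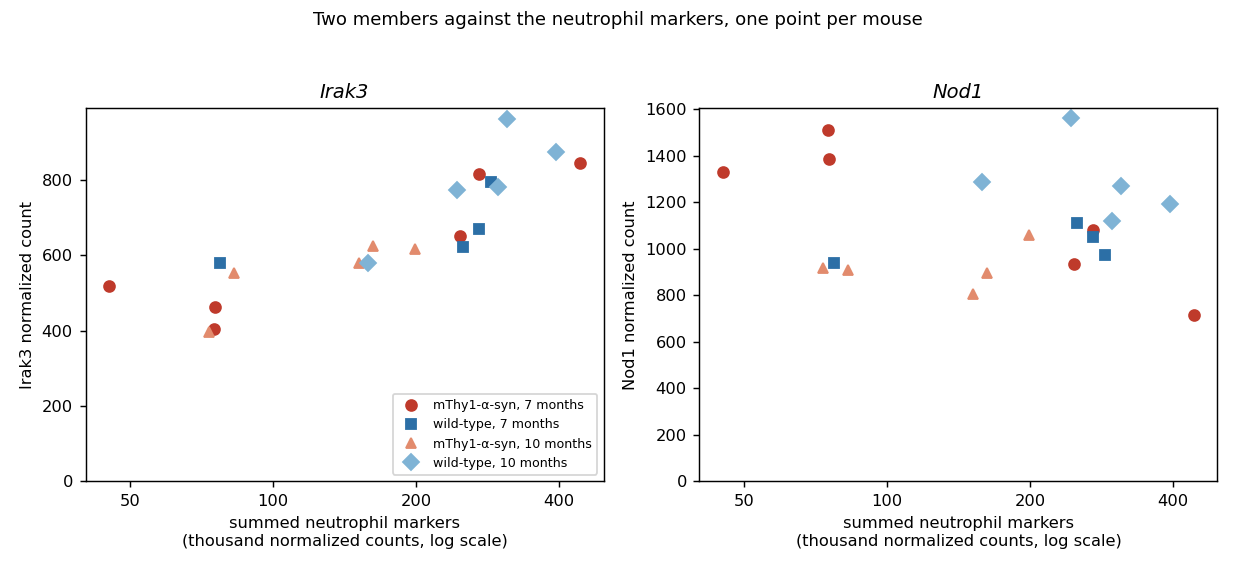
Normalized count of Irak3 (left) and Nod1 (right) against the summed normalized counts of 8 neutrophil markers (log scale), with a point for each of the 20 mice and a symbol for each group. In 3 of the 4 groups the mouse with the lowest sum has the lowest Irak3 value, and Nod1 is high in the 3 mThy1-α-synuclein mice at 7 months with the lowest sums.

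Markers of further cells differed as well, and their part in the members' values was not tested. At 10 months 5 of 5 tested T and NK cell markers and 4 of 7 markers of border macrophages (Cbr2, F13a1, Pf4 and Mrc1) fell. Transgenic mice had summed levels of 426 to 783 against 1093 to 2485 for the former and 18879 to 24280.3 against 25613 to 35529 for the latter. At 7 months 3 of 5 T and NK cell markers fell, as did 7 of 13 neuronal markers, whose sums were 299 to 609 against 984 to 1755. At 10 months 0 of the 11 neuronal markers tested passed, and the sums were 388 to 756 against 395 to 753. Of 8 astrocyte markers, 3 fell and 1 (Slc1a3) rose at 7 months and 1 (Aldh1l1) rose at 10 months, with summed levels of 9643 to 12421 against 9091 to 11752 and 10227 to 11314 against 9011 to 10951. Of oligodendrocyte and endothelial markers, 3 of 9 and 2 of 7 fell at 7 months and 0 passed at 10 months, while 1 of 4 monocyte markers (Plac8) fell at 10 months and 0 of 4 B cell markers passed at 7 months. None of the T and NK cell, border macrophage or neuronal markers was at 0 in every mouse of a group.

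Nfkbia, Tnfaip3 and Nfkbiz are known as fast-induced genes, so they were set beside 21 immediate-early genes, which cell isolation can also induce. Of those 21, 0 passed the test at 7 months and 1, Fosb, passed at 10 months, at -0.67 ± 0.18, adjusted p = 0.0474 (limma), and the list had medians of -0.091 and -0.19. At 10 months, with genotype means removed, Nfkbiz followed the mean of the list over the 10 mice (Pearson r = 0.83, permutation p = 0.00351, adjusted 0.0211 over 6 relations, Spearman rho = 0.81, permutation p = 0.00719). Without the 2 mice farthest from the median its r was 0.81 (permutation p = 0.0175, adjusted 0.0524). For Nfkbia at 10 months, r was 0.75 (permutation p = 0.0125, adjusted 0.0376, rho = 0.76, permutation p = 0.0145), and 0.49 without those mice (permutation p = 0.219, adjusted 0.329). The 8 mice left span a narrower range, so this cannot show whether the relation rested on those 2. For Tnfaip3 r was 0.66 (permutation p = 0.0377, adjusted 0.0606, rho = 0.67, permutation p = 0.0392), and 0.89 without those 2 mice (permutation p = 0.00304, adjusted 0.0182). At 7 months r was 0.66 for Nfkbiz (permutation p = 0.0404, adjusted 0.0606), -0.17 for Nfkbia (permutation p = 0.635) and -0.27 for Tnfaip3 (permutation p = 0.447).

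Receptors before the 44 genes and targets after them were counted in the same way. Both lists, like the 44 genes, were chosen with earlier results of these data known. Of 24 receptors upstream of the pathway, 9 rose and 0 fell at 7 months, with a median log2 fold change of 0.33, beside 2.23% of all genes called higher. The largest changes were in Tlr1 (0.75 ± 0.12, adjusted p = 0.00347, limma), which pairs with TLR2, Ly96 (0.61 ± 0.12, adjusted p = 0.00797), the co-receptor MD-2 of TLR4, and the nucleic acid sensors Tlr7 (0.61 ± 0.083, adjusted p = 0.00183) and Tlr9 (0.54 ± 0.096, adjusted p = 0.00424). At 10 months 2 of the 24 rose (Tlr1 and Tnfrsf11a) and 4 fell, among them Il18r1 and the TLR4 co-receptor gene Cd14 (-0.60 ± 0.10, adjusted p = 0.00549), with a median of -0.13. Of all genes, 3.88% were called higher and 3.79% lower at that age. The difference between ages passed for 6 receptors, all below 0, beside 2.62% of all genes called below 0. Ly96 was at -0.92 ± 0.14, adjusted p = 0.000749 (limma). The same 2 ages gave 0 and 5 calls among the 44 genes (0% and 11.4%), beside 4.93% and 7.67% of all genes.

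Of 36 established NF-κB target genes, 33 were tested at 7 months and 32 at 10 months. At 7 months 2 rose, Vcam1 (1.64 ± 0.21, adjusted p = 0.00275, limma), an adhesion molecule, and the chemokine Cxcl10 (1.26 ± 0.25, adjusted p = 0.00967), and 1 fell, the chemokine Ccl5 (-1.17 ± 0.23, adjusted p = 0.00815), with a median of 0.064. Of all genes, 2.23% were called higher and 2.7% lower at 7 months. At 10 months 11 fell and 1 rose, with a median of -0.36, beside 3.79% of all genes called lower. The largest were the cytokine Il1b (-1.40 ± 0.28, adjusted p = 0.0222), the neutrophil chemokine Cxcl2 (-1.20 ± 0.23, adjusted p = 0.0103), Ptgs2 (-1.20 ± 0.17, adjusted p = 0.00332), which encodes COX-2, and the chemokine Cxcl1 (-1.14 ± 0.29, adjusted p = 0.03). With the neutrophil markers as a covariate 0 of the 32 passed at 10 months, where only 0.294% of all genes did. The difference between ages passed for 5 targets, all below 0, beside 2.62% of all genes called below 0.

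Of 50 further signaling genes of the pathway, 3 passed at each age (6.0%), close to the 4.93% and 7.67% of all genes. At 7 months they were Map2k7 lower (-0.39 ± 0.081, adjusted p = 0.0121, limma), Tifa higher (0.36 ± 0.083, adjusted p = 0.022) and Ticam2 higher (0.33 ± 0.077, adjusted p = 0.0238), and at 10 months Tnip3 lower (-0.83 ± 0.23, adjusted p = 0.0419), Peli2 higher (0.31 ± 0.083, adjusted p = 0.0359) and Map2k7 higher (0.30 ± 0.085, adjusted p = 0.0467). TIFA activates TRAF6, the product of Ticam2 bridges TLR4 to TRIF, and MKK7 from Map2k7 activates the kinase JNK. Map2k7 thus passed in opposite directions at the 2 ages, and its difference between them was 0.68 ± 0.12, adjusted p = 0.00166 (limma). That difference passed for 4 of the 50 genes (8.0%), beside 6.36% of all genes. Map2k7 and Peli2 were above 0, and Usp18 and Tifa below. The medians of this list were -0.010 and -0.023. Of 9 tested genes of the interferon regulatory factor arm, 0 passed at 7 months and 1, Ddx58, which encodes the RNA sensor RIG-I, fell at 10 months (-0.32 ± 0.093, adjusted p = 0.0488), beside 4.93% and 7.67% of all genes. In this arm the difference between ages passed for 2 of the 9 (22.2%), Ddx58 and Tmem173, both below 0. Over all genes 2.62% were called below 0.

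**Figure D5:**
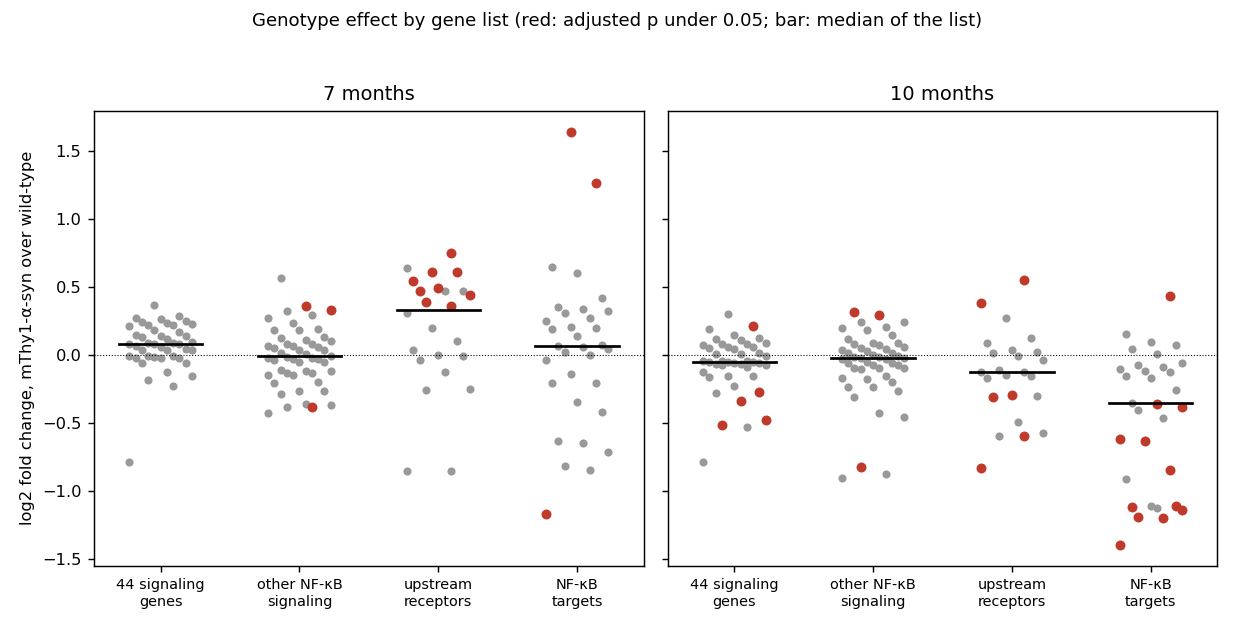
Log2 fold change of mThy1-α-synuclein over wild-type for each tested gene (points) of 4 lists at 7 months (left) and 10 months (right), with red points for an adjusted p under 0.05 in limma and a bar at the median of each list. Of the 44 signaling genes 0 are red at 7 months and 5 at 10 months, 9 receptors are red above 0 at 7 months, and 11 targets are red below 0 at 10 months.

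The called members were spread over the genome. Around Myd88, 11 of 84 tested genes with a start within 5 Mb passed at 10 months, and around Irak3 6 of 43, against 7.67% overall. Around Tnip1 there were 7 of 105, around Nod1 2 of 43 and around Map3k7 0 of 19. Exons of Irak3 share 192 bases with Tmbim4 on the opposite strand, those of Irak4 395 bases with Twf1, those of Ikbkg 418 bases with G6pdx and those of Ripk1 241 bases with Serpinb6a. Those of Nfkbib share 314 bases with Ccer2 and 42 with Sirt2, also on the opposite strand. Likewise, those of Nfkb2 share 531 with AC114539.1 and 299 with Psd. Reads in these stretches cannot be assigned to a gene where strand was not used.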

How the data were processed

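Microglial RNA of 20 mice was sequenced in the study. According to the methods and the submitters' processing notes, the authors trimmed reads with Trim Galore 0.6.7, mapped them to mm10 with HISAT2 2.2.1 and assigned them to genes by featureCounts. Signal values deposited by the authors are gene counts divided by a DESeq2 (version 1.44.0) size factor per mouse, for 24062 genes. The factors equal those recomputed within each age, and the whole reads (33404096 to 77806399 per mouse) were recovered, with 100% of low values whole within 0.001. The strand setting and annotation of the counting are not given in the sources used here. Counting error weighs most on the members with the lowest counts.

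Genes reaching 10 in at least 4 mice (7 months, interaction) or 5 mice (10 months) were tested on log2(value + 1) with limma 3.58.1 (trend, robust, two-sided), adjusted by the Benjamini-Hochberg method over all genes tested. A fold change on this scale understates that of low genes. The interaction compares the genotype effects in 1 fit of 20 mice. edgeR 4.0.16 and DESeq2 1.42.0 on the recovered reads (R 4.3.3), other pseudocounts and filters, TMM scaling, a block on replicate number, size factors over all 20 mice and leaving out each mouse were alternatives. Scripts of the fit were tested on simulated data. Correlations used 100000 permutations (Python 3.11.15, scipy 1.17.1). Gene positions and exon lengths are from GENCODE M21, and promoters from RefSeq (GRCm38.p6). The 44 genes and all lists were chosen with earlier results of these data known. The 20 members described mouse by mouse are those past a test and, to reach that number, those with the smallest unadjusted p in any fit. From other lists, up to 4 called genes with the largest change are named. Exon overlaps and the neutrophil covariate were examined after the data were seen.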

Additional observations from a re-analysis of the deposited data

Results flagged for a closer look

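In wild-type mice at 10 months, replicate 1 stood apart in Ripk1, with 4132 normalized counts where the nearest mouse of its group had 3436 and the farthest 3190.1. In mThy1-α-synuclein mice at 7 months, replicate 3 stood apart in Traf1, with 111 normalized counts where the nearest mouse had 54.4 and the farthest 34.7. These were the 2 cases among 80 groups of values examined (20 genes in 4 groups), where chance gives about 1 in 20.

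The genotype effect on Irak1 differed between the ages by a test of the difference itself, at 0.31 on the log2 scale (10 months minus 7 months, adjusted p = 0.0284, limma). All 6 mThy1-α-synuclein mice were below all 4 wild-type mice at 7 months.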

How the results depend on the processing

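Of 44 members, 0, 5 and 1 were called at 7 months, at 10 months and for the difference between ages. These counts were 2, 6 and 4 with DESeq2, 0, 5 and 2 with edgeR, and 0, 4 and 2 with TMM scaling. With no filter on low values 1 member passed at 10 months, with the 20-mouse size factors 2 passed for the difference between ages, and with the neutrophil covariate the counts were 1, 0 and 4. Leaving out 1 mouse gave 0 to 1, 1 to 5 and 0 to 3 calls, and 2 to 4 and 4 to 7 members without overlap. For any gene, leaving out a mouse can only add to the cases without overlap. For the counts without overlap, the share over all genes was not taken in these settings, so they have no background beside them. The calls over all genes follow in the next paragraph. The replicate numbers did not pair the mice (correlations of same-numbered mice from -0.134 to 0.0995, and in no pair was each mouse closest to the other). With a replicate block, 0, 2 (Irak3 and Nod1) and 1 (Nod1, adjusted p = 0.0153) members passed, and Irak1 had an adjusted p of 0.154 for the difference between ages. The cause of these changes was not tested.

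Over all genes, calls at 7 months numbered 684 with limma, 1158 with DESeq2, 414 with the block and 280 to 860 without 1 mouse. At 10 months they were 1045, 1694 with DESeq2, 40 with the covariate and 489 to 1232 without 1 mouse. For the difference between ages they were 920, 482 with the block and 618 to 1097 without 1 mouse. TMM scaling gave 771, 1105 and 990 calls over all genes, and no filter on low values gave 860 at 10 months. The 20-mouse size factors gave 932 for the difference between ages. At 10 months, the fits without 1 mouse in which Nod1 was the only member called gave 489 to 721 calls over all genes.

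The median log2 fold change of the members was -0.0081 at 10 months with the covariate, and without 1 mouse 0.052 to 0.10 at 7 months and -0.046 to -0.028 at 10 months. Among the 50 further signaling genes, calls changed to 1 (7 months, block), 7 (10 months, DESeq2), 1 (10 months, no filter), 0 (10 months, covariate) and 2 (difference, block), and ranged without 1 mouse over 1 to 3, 0 to 4 and 2 to 5. Among receptors, calls changed to 0 at 10 months with the covariate and ranged over 7 to 11, 2 to 6 and 5 to 8. Among targets they changed to 5 (7 months, covariate), 0 (10 months, covariate) and, for the difference, to 3 with no filter, 3 with the block and 8 with the covariate, and ranged over 3 to 6, 6 to 14 and 2 to 7. Without the 2 outermost mice, r with the immediate-early genes at 10 months was 0.49 for Nfkbia, 0.89 for Tnfaip3 and 0.81 for Nfkbiz.

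Directions turned for members far from the threshold: Myd88 at 7 months (0.016 with the covariate, -0.056 to 0.037 without 1 mouse), Ikbkg at 7 months (0.045 with the block, -0.077 to 0.045 without 1 mouse), Ikbke at 7 months (-0.022 with the block, -0.12 to 0.28), Irak4 at 10 months (-0.026 to 0.060), Ripk1 at 10 months (-0.084 to 0.0094) and Map3k8 at 10 months (0.030 with the covariate, -0.14 to 0.048). The lowest group mean among the 44 genes was 52.9 normalized counts (Traf1), where counting error is largest.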
